A study of Mus musculus with 8 samples.

Results

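The genes of the autophagy machinery were examined in infarct tissue from the brains of aged mice. A fixed list of 36 genes was taken, covering the initiation of autophagy, the conjugation of ATG8 proteins and the cargo receptors, and each was found by its symbol among the 46078 Ensembl genes counted in every library. All 36 had a row, and all 36 passed the filter on low counts that left 14736 genes to test. The 8 animals were C57BL/6J mice of wild type genotype, 18 months old, and all had undergone DH stroke, a model that combines occlusion of a distal cerebral artery with a period of hypoxia. From 1 week after stroke, 4 animals received sterile PBS (vehicle) and 4 received 4 g/kg HPβCD, by subcutaneous injection 3 times per week for 6 weeks. HPβCD (2-hydroxypropyl-β-cyclodextrin) is a ring-shaped sugar that holds cholesterol and other lipids in its central cavity. Infarcts were collected 7 weeks after stroke. They were located by eye and dissected by hand, and each library came from 1 animal.

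Autophagy delivers cytoplasm, organelles and lipid droplets to the lysosome inside a double membrane, the autophagosome. The ULK kinase complex starts the process, the lipid kinase complex around Beclin and VPS34 marks the membrane with a phosphoinositide, and the WIPI, ATG2 and ATG9 proteins bring in lipid so that the membrane can grow. A conjugation system related to ubiquitin then attaches the small ATG8 proteins to that membrane, where receptors bind them and bring in cargo, and the finished autophagosome fuses with the lysosome. In macrophages that have taken up myelin or cholesterol, the same route carries lipid droplets to lysosomal lipases. Messenger RNA levels do not measure autophagic flux, since LC3B and p62 protein turn over within the pathway itself.

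Most of the autophagy genes had small fold changes between HPβCD and vehicle infarcts, and the largest positive ones belonged to genes for ATG8 proteins, cargo receptors and the E1-like enzyme ATG7. *Gabarap*, the most abundant of the 36 per length of gene, was 1.98-fold higher in HPβCD infarcts, and *Map1lc3b*, *Atg7*, *Optn* and *Sqstm1* were higher by 0.47 to 0.64 on the log2 scale. None of these passed the test across all genes in edgeR, where the smallest adjusted p of any of the 36 genes was 0.0516, for *Atg7*. The initiating ULK complex showed log2 fold changes of −0.23 to 0.14, and *Gabarapl2* was the gene with the lowest log2 fold change of the list, at −0.48.

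In edgeR (quasi-likelihood F test, Benjamini-Hochberg adjustment over all genes), 0 of the 36 genes passed in either direction, where 1.17% of all tested genes passed as higher and 0.774% as lower in HPβCD infarcts. At an unadjusted p under 0.05, 6 of the 36 (16.7%) were higher (*Atg7*, *Gabarap*, *Optn*, *Map1lc3b*, *Sqstm1* and *Calcoco1*), against 11.8% of all genes, and 1 (2.78%), *Gabarapl2*, was lower, against 16.0%. With 1 animal left out at a time, 4 to 11 were higher at that threshold and 0 to 2 were lower. Without vehicle animal 3, 11 were higher, against 13.5% of all genes, and without HPβCD animal 4, 8 were, against 13.1%. Without any one of the other 6 animals, 4 (11.1%) were higher, against 8.35 to 12% of all genes. Without HPβCD animal 4, 2 were lower, against 14.6% of all genes, and without HPβCD animal 1, 0 were, against 11.3%. In each of the other fits 1 was lower, against at most 17.5% of all genes. DESeq2, the tool the study used, passed 4 of the 36 (11.1%) as higher (*Gabarap*, *Atg7*, *Optn* and *Map1lc3b*), against 5.92% of the genes it adjusted, and 0 as lower, against 11.1%. With limma-voom, which gives libraries that stand apart less weight, 9 (25.0%) passed as higher (those 6 with *Pik3c3*, *Pik3r4* and *Atg2a*) and 1 (2.78%), *Gabarapl2*, as lower, where 11.1% of all genes passed as higher and 10.9% as lower. The 4 animals of one group lay wholly above the 4 of the other for 4 of the 36 genes (11.1%), all higher in HPβCD infarcts (*Atg7*, *Gabarap*, *Optn* and *Calcoco1*), whereas 8.77% of all genes were separated in that direction and 8.03% in the other. The share of separated genes was near that of all genes upward, and no gene of the list was separated downward.

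Over the whole list, 20 genes (55.6%) had a positive and 16 a negative log2 fold change, where 45.9% of all tested genes had a positive one. The median was 0.09, beside −0.05 over all tested genes, and the range was −0.48 to 0.98. With 1 animal left out at a time, 18 to 28 were positive and the median ran from 0.00 (without HPβCD animal 2) to 0.12 (without vehicle animal 3), and it was 0.16 without vehicle animals 1 and 3 and 0.00 with library totals only. The median size of the change without its sign was 0.20 for the list and 0.31 for all genes. The plot of fold changes by role shows that the ATG8 group held both the highest and the lowest gene of the list, and how far some genes moved when vehicle animals 1 and 3 were left out.

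**Figure D1:**
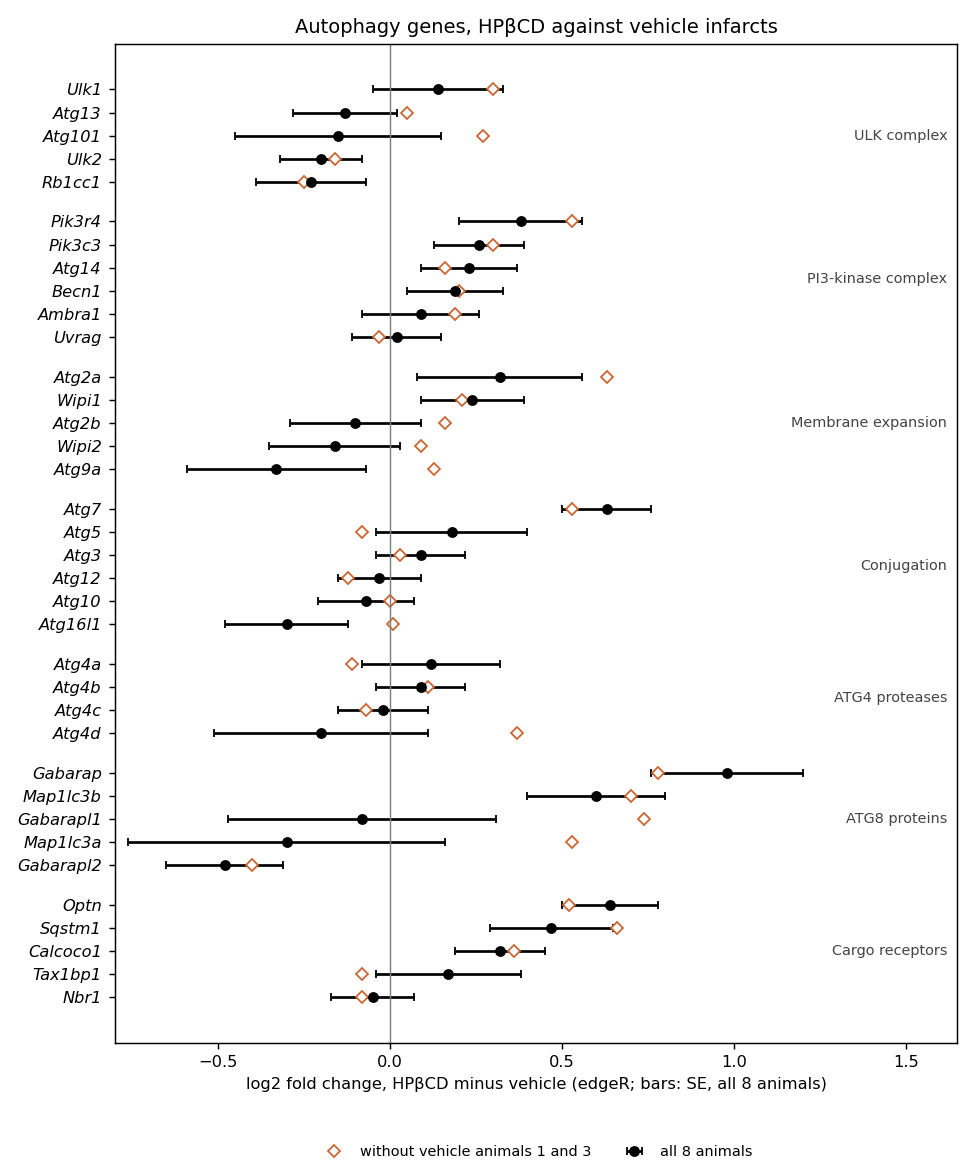
Log2 fold change (HPβCD minus vehicle, edgeR) of the 36 autophagy genes, grouped by role. Filled points with bars give the value and SE with all 8 animals, and open diamonds the value without vehicle animals 1 and 3; *Gabarap* lies furthest to the right at 0.98, and *Gabarapl1* goes from −0.08 to 0.74.

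Libraries held 16616909 to 32933164 counts assigned to genes, and the least abundant of the 36 genes still had 68 counts in its lowest library. The pieces differed in their cell content. Summed over 10 neuron markers, vehicle animals 1 and 3 had 1375 and 8681 CPM (counts per 1000000 counts, with the edgeR TMM scaling), vehicle animals 2 and 4 had 59.1 and 26.9 CPM, and HPβCD infarcts had 12.1 to 109 CPM, with 1 of the 10 markers at 0 in some library. A list of 8 foamy macrophage markers, in which the most abundant was *Gpnmb*, summed to 8078 to 14024 CPM in vehicle and 17387 to 29102 CPM in HPβCD infarcts, without overlap. *Gpnmb* itself had means of 4154 and 10803 CPM. Of the 8 markers, 7 had positive log2 fold changes and 3 separated the groups. *Spp1* was at 0.09, and *Lpl* went the other way, at −0.21. Sums of 6 fibroblast markers (2298 to 5863 CPM and 8432 to 9033 CPM) and of 5 endothelial markers (388 to 451 CPM and 418 to 731 CPM) were higher in HPβCD infarcts, the latter with overlap, while those of 6 plasma cell markers were lower (1209 to 2671 CPM and 344 to 579 CPM). In vehicle infarcts the plasma cell sum was mostly *Jchain*, with means of 1596 CPM there and 99.6 CPM in HPβCD infarcts. Of the 6 markers, 3 were separated downward. *Xbp1* and *Prdm1* overlapped, at −0.28 and −0.17, and *Sdc1* went the other way, at 0.41. Sums of oligodendrocyte precursor markers were 204 to 345 CPM in vehicle and 428 to 499 CPM in HPβCD infarcts. That sum was mostly *Pdgfra*, with means of 235 and 430 CPM and a log2 fold change of 0.87. *Cspg4* was at 0.32, while *Olig1*, *Olig2* and *Sox10* went the other way, at −2.07, −1.94 and −1.60. Sums of B lymphocyte markers were 135 to 494 CPM and 41.7 to 124 CPM, and those of microglia and T lymphocyte markers overlapped. Astrocyte sums ran from 2318 to 9885 CPM in vehicle and 709 to 2702 CPM in HPβCD infarcts, and oligodendrocyte sums from 1518 to 4876 CPM and 158 to 1929.8 CPM. The foamy macrophage, fibroblast, oligodendrocyte precursor, plasma cell and B lymphocyte sums separated the groups, and the other sums overlapped. The part of any of them in the values below was not tested. In bulk tissue, fewer cells of a type and less RNA per cell cannot be told apart.

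The ATG8 proteins are the ubiquitin-like molecules that coat the autophagosome membrane, and 5 of their genes were listed. *Gabarap* (ENSMUSG00000018567, chr11:69991143-69994951, GRCm38) stood at 395, 401, 299.8 and 559 CPM in vehicle animals 1 to 4 and at 873, 956, 786 and 654 CPM in HPβCD animals 1 to 4. The lowest HPβCD infarct lay above the highest vehicle infarct. The means were 414 ± 107 CPM (SD, n = 4) in vehicle infarcts and 817 ± 129 CPM (SD, n = 4) in HPβCD infarcts, a log2 fold change of 0.98 ± 0.22 (SE), with an unadjusted p of 0.0016 and an adjusted p of 0.0568 in edgeR. With each animal left out in turn the log2 fold change stayed between 0.86 and 1.18, and it was 0.78 without vehicle animals 1 and 3. DESeq2 gave an adjusted p of 0.00124, and edgeR passed the gene without vehicle animal 3 (adjusted p = 0.0473). The foamy macrophage and fibroblast sums separated the groups in the same direction, and their part in the difference was not tested. *Map1lc3b*, which encodes LC3B, the usual marker of autophagosomes, stood at 216, 191, 303 and 272 CPM in vehicle animals 1 to 4 and at 423, 352, 435 and 282 CPM in HPβCD animals 1 to 4. HPβCD animal 4 fell inside the vehicle range and the other 3 lay above it. Its log2 fold change was 0.60 ± 0.20 (SE), with an unadjusted p of 0.0168 and an adjusted p of 0.107 in edgeR, and DESeq2 gave an adjusted p of 0.0434.

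*Gabarapl1*, a close relative of *Gabarap* with high expression in neurons, stood at 75.1, 45.9, 169 and 51.6 CPM in vehicle animals 1 to 4 and at 86.5, 75.1, 89.3 and 72.1 CPM in HPβCD animals 1 to 4. The 4 HPβCD infarcts were close together, whereas the vehicle infarcts ran from below to far above them. The highest value was in animal 3, the animal with the most neuron and the most astrocyte marker transcripts. The log2 fold change was −0.08 ± 0.39 (SE) with all animals and 0.74 ± 0.15 (SE) without vehicle animals 1 and 3, where the edgeR adjusted p was 0.0504. With the neuron score as a covariate it was 0.85. *Map1lc3a*, which encodes LC3A, stood at 10.4, 4.99, 26.9 and 9.95 CPM in vehicle animals 1 to 4 and at 12.6, 10.2, 12.1 and 7.49 CPM in HPβCD animals 1 to 4. Vehicle animal 3 was again the highest, and all HPβCD infarcts lay within the vehicle range. Its log2 fold change was −0.30 ± 0.46 (SE) with all animals and 0.53 without vehicle animals 1 and 3, so that neither gene had a direction that held.

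**Figure D2:**
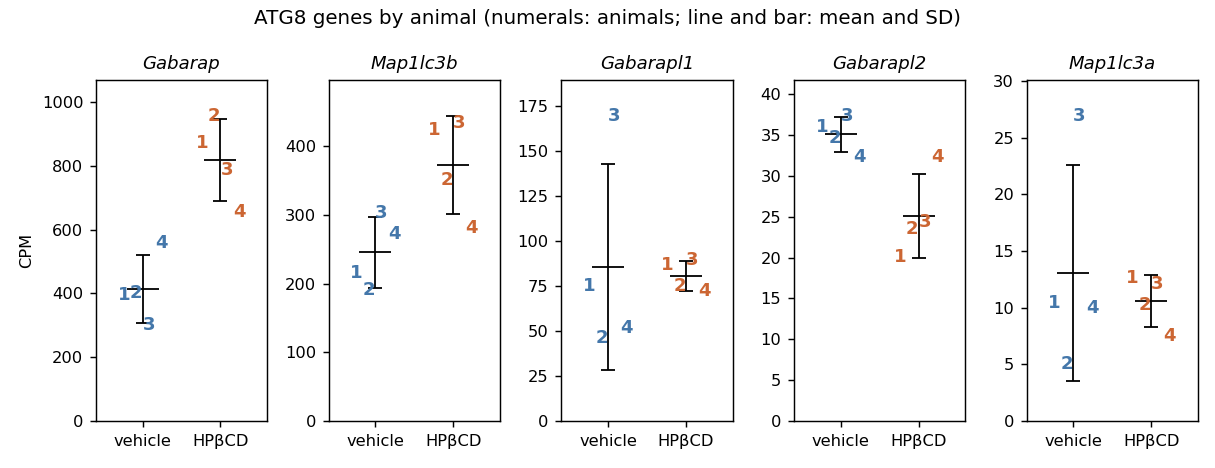
CPM (linear axes from 0) of the 5 ATG8 genes in vehicle and HPβCD infarcts. Numerals are animals, and the line and bar are the mean and SD (n = 4); *Gabarap* separates the groups, and vehicle animal 3 is the highest for *Gabarapl1* and *Map1lc3a*.

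*Gabarapl2*, which encodes GATE-16, had the lowest log2 fold change of the list and is described for that reason. It stood at 36, 34.7, 37.3 and 32.3 CPM in vehicle animals 1 to 4 and at 20.1, 23.5, 24.4 and 32.3 CPM in HPβCD animals 1 to 4, so that HPβCD animal 4 matched the lowest vehicle animal and the other 3 were below every vehicle animal. The log2 fold change was −0.48 ± 0.17 (SE), with an unadjusted p of 0.0171 and an adjusted p of 0.107 in edgeR. Of its longest transcript, 20.9% matched 3 processed pseudogenes at 95% identity or more. Of that of *Map1lc3b*, 13.8% matched some of 85 other genes in the same way, and the longest of these matches were to processed pseudogenes. Reads from such stretches can be lost as multiply mapped or assigned to the copy, so the levels of both genes are uncertain to that extent.

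Per length of gene (CPM per kb of the union of annotated exons), *Gabarap* made up 68.7 ± 13% (SD, n = 4) of the summed ATG8 level in vehicle and 80.0 ± 2.47% (SD, n = 4) in HPβCD infarcts. *Gabarapl2* made up 5.09, 5.24, 4.92 and 3.58% in vehicle animals 1 to 4 and 1.46, 1.63, 1.91 and 3.10% in HPβCD animals 1 to 4. The denominator of these shares was mostly *Gabarap*, itself higher in HPβCD infarcts, and in CPM the *Gabarapl2* values of the groups met at animal 4 of each. The share of *Gabarapl1* ran from 6.62 to 25.8% in vehicle and from 6.01 to 8.08% in HPβCD infarcts.

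Log2 ratios of paired genes within an animal do not depend on the scaling between libraries, and 4 were compared. The ratio of *Gabarapl1* to *Gabarap* was −2.40, −3.12, −0.82 and −3.43 in vehicle animals 1 to 4 and −3.33, −3.67, −3.14 and −3.18 in HPβCD animals 1 to 4. The groups overlapped, and the difference of −0.89 had p = 0.2 by the exact two-sided permutation test (70 assignments, smallest possible p 0.0286). The ratio of *Map1lc3a* to *Map1lc3b* differed by −0.67 (exact permutation p = 0.143), with a vehicle mean of −4.46 ± 0.74 (SD, n = 4) and an HPβCD mean of −5.13 ± 0.07 (SD, n = 4). For *Sqstm1* to *Map1lc3b*, a receptor and the protein it binds, the difference was −0.11 (exact permutation p = 0.343). *Ulk2* to *Ulk1* differed by −0.37 (exact permutation p = 0.0857), and it was the pair nearest to the threshold. After adjustment over the 4 ratios the values of p were 0.267, 0.267, 0.343 and 0.267, in the same order.

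**Figure D3:**
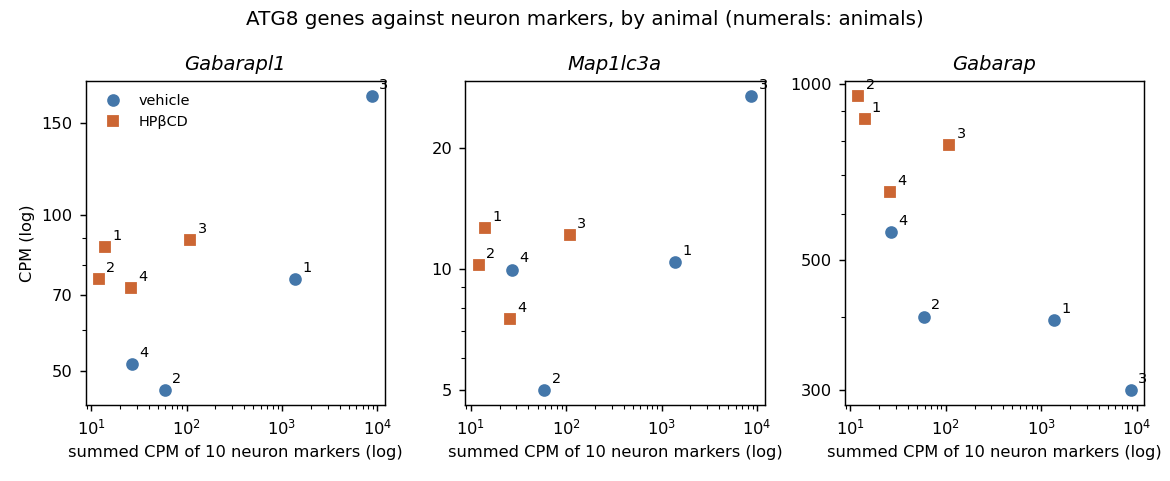
CPM of *Gabarapl1*, *Map1lc3a* and *Gabarap* (log axes) against the summed CPM of 10 neuron markers (log axis) in each of the 8 animals, numbered within their group. Vehicle animal 3, at 8681 CPM of neuron markers and also highest in astrocyte markers, has the highest *Gabarapl1* and *Map1lc3a* and the lowest *Gabarap*. The points share their libraries and scaling.

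*Atg7* (ENSMUSG00000030314, chr6:114643097-114860614, GRCm38) encodes the enzyme that activates both ATG12 and the ATG8 proteins for conjugation. It stood at 39.8, 47.6, 42.3 and 49.2 CPM in vehicle animals 1 to 4 and at 69.2, 78.4, 69.3 and 60.1 CPM in HPβCD animals 1 to 4. All HPβCD infarcts were above all vehicle infarcts, by 1.55-fold in the fit. The log2 fold change was 0.63 ± 0.13 (SE), with an unadjusted p of 0.00111 and an adjusted p of 0.0516 in edgeR. DESeq2 gave an adjusted p of 0.00156. With each animal left out in turn the log2 fold change was 0.57 to 0.70, and it was 0.53 without vehicle animals 1 and 3 and 0.51 with the neuron score as a covariate. edgeR passed the gene without vehicle animal 3 (adjusted p = 0.0454) and without HPβCD animal 4 (adjusted p = 0.0438).

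The other 5 genes of the conjugation system had log2 fold changes of −0.30 to 0.18, and none passed in edgeR, DESeq2 or limma-voom. *Atg5*, the partner of ATG12 in the conjugate and the gene of this group with the highest level per length, stood at 51.7, 65.4, 36.2 and 68.1 CPM in vehicle animals 1 to 4 and at 64.5, 61.2, 50.7 and 74.1 CPM in HPβCD animals 1 to 4. The groups overlapped, with a log2 fold change of 0.18 ± 0.22 (SE) and an edgeR adjusted p of 0.638. Log2 fold changes of the E2-like enzymes *Atg3* and *Atg10* were 0.09 and −0.07, that of *Atg12* was −0.03, and that of *Atg16l1*, which directs the conjugate to the membrane, was −0.30, or 0.01 without vehicle animals 1 and 3. Of the 6 genes, 3 had positive and 3 negative values, with a median of 0.03.

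The ATG4 proteases trim ATG8 proteins before conjugation and later release them from the membrane. *Atg4c*, the one with the highest level per length, stood at 54.9, 70.1, 71.9 and 68.7 CPM in vehicle animals 1 to 4 and at 69.9, 64.8, 58.4 and 69.1 CPM in HPβCD animals 1 to 4. *Atg4d*, the least abundant of the 36 genes per length and the one with the largest change in this group, stood at 5.60, 4.10, 9.56 and 3.66 CPM in vehicle animals 1 to 4 and at 5.75, 4.72, 4.99 and 4.39 CPM in HPβCD animals 1 to 4. Both overlapped between groups, with log2 fold changes of −0.02 ± 0.13 and −0.20 ± 0.31 (SE), and vehicle animal 3 had the highest *Atg4d*. *Atg4b*, the main LC3 protease, had a log2 fold change of 0.09, and *Atg4a* had 0.12, a value that is uncertain because 96% of its longest transcript matched the copy *Atg4a-ps*.

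Cargo receptors bind ubiquitinated or otherwise marked cargo with one end and ATG8 proteins with the other, and 5 were listed. *Optn* (ENSMUSG00000026672, chr2:5020642-5064051, GRCm38), the optineurin gene, whose product takes damaged mitochondria and bacteria into autophagosomes, stood at 15.6, 17.5, 15.6 and 20.8 CPM in vehicle animals 1 to 4 and at 26.2, 26.2, 28.2 and 27.6 CPM in HPβCD animals 1 to 4. Every HPβCD infarct was above every vehicle infarct, and the HPβCD values lay close together. The log2 fold change was 0.64 ± 0.14 (SE), with an unadjusted p of 0.00139 and an adjusted p of 0.0545 in edgeR. DESeq2 gave an adjusted p of 0.00228, and with each animal left out in turn the log2 fold change was 0.59 to 0.75. edgeR passed the gene without vehicle animal 3, where its adjusted p rounded to 0.05, and in no other fit with 1 animal left out.

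*Sqstm1*, which encodes p62, the receptor for ubiquitinated protein and a partner of KEAP1, stood at 182, 177, 287 and 194 CPM in vehicle animals 1 to 4 and at 300.2, 302, 309 and 253 CPM in HPβCD animals 1 to 4. Vehicle animal 3 overlapped the HPβCD infarcts, and the other vehicle animals were below all of them. The log2 fold change was 0.47 ± 0.18 (SE), with an unadjusted p of 0.0306 and an adjusted p of 0.14 in edgeR, and without vehicle animal 3 it was 0.66, with an edgeR adjusted p of 0.0337. *Calcoco1*, a receptor for the endoplasmic reticulum and Golgi, was separated by a narrower gap, which is why its values are given: 16.9, 19.0, 20.9 and 17.3 CPM in vehicle animals 1 to 4 and 23.1, 23.8, 23.8 and 21.6 CPM in HPβCD animals 1 to 4. Its log2 fold change was 0.32 ± 0.13 (SE), with an unadjusted p of 0.0354 and an adjusted p of 0.15 in edgeR.

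*Nbr1* and *Tax1bp1*, both receptors for ubiquitinated aggregates, showed no such pattern, with log2 fold changes of −0.05 ± 0.12 and 0.17 ± 0.21 (SE). Per length, *Sqstm1* was the most abundant of the 5 receptors, at 52.0 ± 8.49% (SD, n = 4) of their summed level in vehicle and 57.9 ± 4.54% (SD, n = 4) in HPβCD infarcts, and *Nbr1* made up 17.2 ± 2.01% and 13.2 ± 1.44% (SD, n = 4 each). These shares are descriptions and were not tested.

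**Figure D4:**
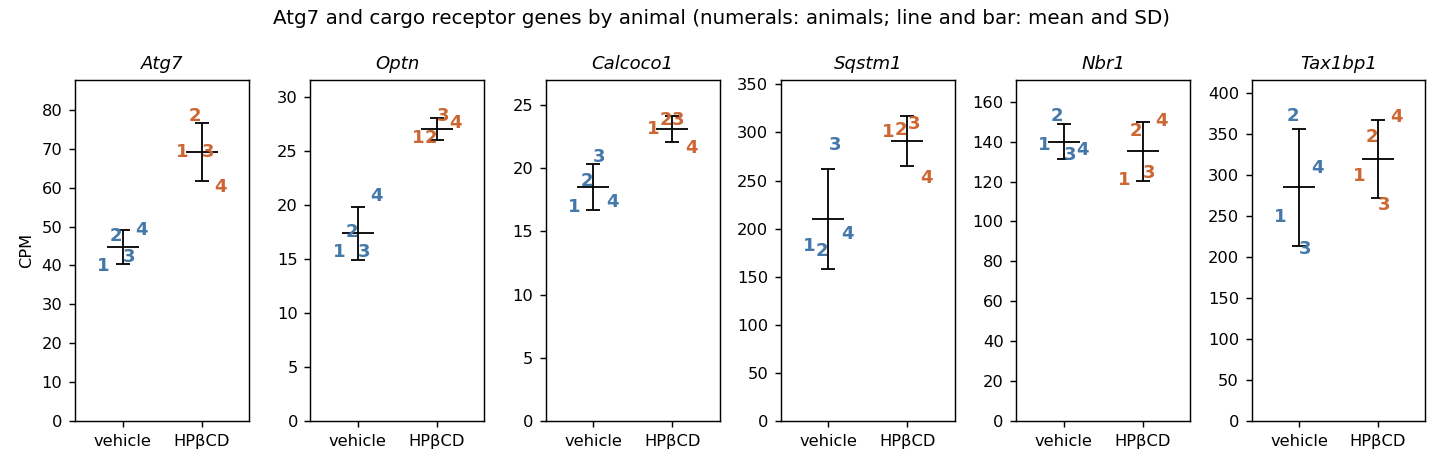
CPM (linear axes from 0) of *Atg7* and the 5 cargo receptor genes in vehicle and HPβCD infarcts. Numerals are animals, and the line and bar are the mean and SD (n = 4); *Atg7*, *Optn* and *Calcoco1* separate the groups, *Sqstm1* does so except for vehicle animal 3, and *Nbr1* and *Tax1bp1* overlap.

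Upstream sequence is shown for *Atg7*, *Optn* and *Calcoco1*, the genes that separated the groups and whose window did not touch their own exons (that of *Gabarap* did). Each is the stretch of 150 bases that ends just before the RefSeq start of the gene, 5′ to 3′ on the strand of the gene, in GRCm38.p6, with a CACGTG match in capitals.
*Atg7*, chr6:114670946-114671095, plus strand: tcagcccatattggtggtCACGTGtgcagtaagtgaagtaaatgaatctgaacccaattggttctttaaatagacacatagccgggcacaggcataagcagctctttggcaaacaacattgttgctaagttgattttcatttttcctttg
*Optn*, chr2:5064118-5064267, minus strand: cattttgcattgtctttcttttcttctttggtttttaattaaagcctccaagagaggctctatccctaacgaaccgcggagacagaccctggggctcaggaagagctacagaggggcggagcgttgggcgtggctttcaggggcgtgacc
*Calcoco1*, chr15:102722179-102722328, minus strand: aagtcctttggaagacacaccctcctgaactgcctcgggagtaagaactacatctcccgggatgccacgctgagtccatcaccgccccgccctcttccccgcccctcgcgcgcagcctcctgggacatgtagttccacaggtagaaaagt
The *Atg7* window belongs to a start 27999 bases downstream of the first annotated start of the gene. Of the 36 genes, 30 had a RefSeq window of 300 bases (250 before to 50 after the start), read on both strands. CACGTG, the E-box core found in the CLEAR elements that TFEB and related factors bind, was found in the windows of 4 of the 30 (*Atg14*, *Atg3*, *Atg5* and *Atg7*), and in those of 8.09% of all genes. TGACNNNGC, the core of the antioxidant response element, was found for 4 (*Atg13*, *Map1lc3b*, *Tax1bp1* and *Ulk2*), and for 14% of all genes. GTAAACA, a forkhead motif, was found for 0 of the 30 and for 4.05% of all genes. No gene of the list had more than 1 kind of these motifs, though *Atg3* had CACGTG at both −94 and −71 relative to its start. A match is a description of the sequence. Among the 4 genes with CACGTG, *Atg7* differed by 0.63 and the others by 0.09 to 0.23 on the log2 scale.

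The ULK complex receives the signals of mTOR and AMPK. *Rb1cc1*, the scaffold FIP200 and the gene of the complex with the largest change, stood at 106, 115, 115 and 114 CPM in vehicle animals 1 to 4 and at 92.6, 94.7, 72.9 and 123 CPM in HPβCD animals 1 to 4. *Ulk2*, the kinase with the highest level per length, stood at 142, 151, 172 and 151 CPM in vehicle animals 1 to 4 and at 127, 131, 128 and 148 CPM in HPβCD animals 1 to 4. For each, 3 of the 4 HPβCD infarcts were below every vehicle infarct and HPβCD animal 4 was not, with log2 fold changes of −0.23 ± 0.16 and −0.20 ± 0.12 (SE) and edgeR adjusted p of 0.394 and 0.299. *Ulk1* had a log2 fold change of 0.14, and the adaptors *Atg13* and *Atg101* had −0.13 and −0.15, or 0.05 and 0.27 without vehicle animals 1 and 3. The median of the 5 genes was −0.15.

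With all animals, the 6 genes of the class III PI3-kinase complex had positive log2 fold changes, against 45.9% of all tested genes, and their median was 0.21. Without HPβCD animal 2, 4 of the 6 were positive. The count was 5 without vehicle animal 1, vehicle animal 4 or both vehicle animals 1 and 3, with library totals only, and with the neuron score as a covariate. None passed the test in edgeR or DESeq2, while limma-voom passed *Pik3c3* and *Pik3r4*. *Pik3r4*, which encodes the regulatory subunit VPS15 and had the largest change, stood at 32.0, 33.8, 39.6 and 25.8 CPM in vehicle animals 1 to 4 and at 43.1, 48.9, 46.1 and 32.5 CPM in HPβCD animals 1 to 4. *Pik3c3*, the lipid kinase VPS34 itself, stood at 51.1, 57.7, 64.1 and 53.0 CPM in vehicle animals 1 to 4 and at 65.4, 72.6, 72.3 and 59.8 CPM in HPβCD animals 1 to 4. For both, HPβCD animal 4 lay within the vehicle range and the other 3 above it, with log2 fold changes of 0.38 ± 0.18 and 0.26 ± 0.13 (SE) and edgeR adjusted p of 0.213 and 0.226. *Becn1* had 0.19, *Atg14*, which directs the complex to autophagosomes, 0.23, *Ambra1* 0.09 and *Uvrag*, which directs it to endosomes, 0.02.

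Among the genes for membrane expansion, the scramblase *Atg9a* had the largest change and *Wipi2*, a reader of the phosphoinositide, the highest level per length. *Atg9a* stood at 19.1, 14.7, 31.2 and 14.5 CPM in vehicle animals 1 to 4 and at 14.4, 19.1, 15.3 and 14.5 CPM in HPβCD animals 1 to 4. *Wipi2* stood at 63.4, 59.0, 99.8 and 61.0 CPM in vehicle animals 1 to 4 and at 69.9, 64.7, 59.3 and 59.2 CPM in HPβCD animals 1 to 4. In both, vehicle animal 3 alone was far above the rest. The log2 fold changes were −0.33 ± 0.26 and −0.16 ± 0.19 (SE) with all animals and 0.13 and 0.09 without vehicle animals 1 and 3. Of the *Atg9a* exon bases, 31.8% are shared with another gene on the same strand, so its counts are uncertain. The lipid transfer genes *Atg2a* and *Atg2b* had 0.32 and −0.10, and *Wipi1* had 0.24.

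A further 63 genes that feed or complete the pathway were listed by step, and 61 were tested (*Atg9b* and *Ccpg1* were too low). In edgeR 1 of the 61 (1.64%) rose in HPβCD infarcts and 0 fell, against 1.17% and 0.774% of all genes, and at an unadjusted p under 0.05 there were 9 (14.8%) higher and 6 (9.84%) lower. DESeq2 passed 5 (8.20%) as higher and 2 (3.28%) as lower, and the groups did not overlap for 7 (11.5%) higher and 3 (4.92%) lower genes. These shares can be read against the same backgrounds over all genes given above, 11.8% and 16.0% for the unadjusted p, 5.92% and 11.1% for DESeq2 and 8.77% and 8.03% for groups without overlap.

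The gene that rose was *Plekhm1* (ENSMUSG00000034247), an adaptor that joins RAB7 and ATG8 proteins to the tethering complex for lysosomes. It stood at 60.6, 79.7, 72.3 and 74.1 CPM in vehicle animals 1 to 4 and at 120.5, 124, 115 and 102 CPM in HPβCD animals 1 to 4, without overlap. The log2 fold change was 0.69 ± 0.13 (SE), with an unadjusted p of 0.00052 and an adjusted p of 0.0483 in edgeR, and without vehicle animals 1 and 3 it was 0.60, with an adjusted p of 0.0691. With each animal left out in turn, edgeR's adjusted p ran from 0.0343 to 0.175, and the gene passed when HPβCD animal 4 or either of vehicle animals 2 and 3 was dropped and not when any of the other 5 was. *Vps18*, a subunit of that tethering complex (HOPS), stood at 43.6, 46.7, 52.0 and 38.8 CPM in vehicle animals 1 to 4 and at 67.3, 73.2, 67.1 and 57.6 CPM in HPβCD animals 1 to 4. It did not overlap either, at 0.55 ± 0.14 (SE) with an edgeR adjusted p of 0.0658. With all animals, the 14 genes of the fusion machinery had positive log2 fold changes, against 45.9% of all tested genes. Their values ran from 0.03 to 0.69 with a median of 0.24. However, *Snap29* and *Stx17* were at −0.09 and −0.02 without vehicle animals 1 and 3 and at −0.12 and −0.02 with the neuron score as a covariate. *Vps41* was at −0.05 and *Stx17* at −0.0017 with library totals only, *Stx17* was at −0.07 with limma-voom, and 1 of the 14 was negative without vehicle animal 2. Of the 14, 1 passed in edgeR (against 1.17% of all genes), 3 in DESeq2 (against 5.92%) and 5 at an unadjusted p under 0.05 in edgeR (against 11.8%), all as higher.

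*Nrbf2*, a subunit that binds the PI3-kinase complex of autophagy, stood at 6.84, 9.39, 9.26 and 8.07 CPM in vehicle animals 1 to 4 and at 14.7, 12.1, 18.7 and 10.5 CPM in HPβCD animals 1 to 4. The groups did not overlap, with a log2 fold change of 0.74 ± 0.22 (SE) and an edgeR adjusted p of 0.0833. *Bcl2*, which holds Beclin inactive, stood at 48.6, 57.1, 32.9 and 52.8 CPM in vehicle animals 1 to 4 and at 34.8, 30.1, 28.4 and 35.1 CPM in HPβCD animals 1 to 4, so that 3 vehicle animals were above all HPβCD infarcts and animal 3 was not. It differed by −0.58 ± 0.19 (SE) on the log2 scale with all animals (edgeR adjusted p = 0.0963) and by −0.76 without vehicle animals 1 and 3 (edgeR adjusted p = 0.0443). The 11 modulators of the PI3-kinase complex had a median of 0.11, and the 17 upstream kinases and regulators 0.06.

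Of the selective autophagy genes, 12 of 17 had negative log2 fold changes, with a median of −0.19, but 8 of 17 did without vehicle animals 1 and 3, with a median of 0.06, and 9 of 17 without vehicle animal 3, with a median of −0.08. Neither this list nor the fusion list was tested as a list. *Pink1*, the kinase that marks damaged mitochondria, stood at 201, 111, 271 and 152 CPM in vehicle animals 1 to 4 and at 95.3, 91.3, 101 and 116 CPM in HPβCD animals 1 to 4. *Nipsnap1*, a mitochondrial signal for the same route, stood at 14.3, 7.98, 24.7 and 7.58 CPM in vehicle animals 1 to 4 and at 5.52, 6.80, 6.01 and 7.05 CPM in HPβCD animals 1 to 4. Both were highest in vehicle animals 3 and 1, the animals with the most neuron and the most astrocyte marker transcripts. Their log2 fold changes were −0.87 ± 0.26 and −1.10 ± 0.37 (SE; edgeR adjusted p 0.0846 and 0.106), and −0.37 and −0.28 without those animals.

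**Figure D5:**
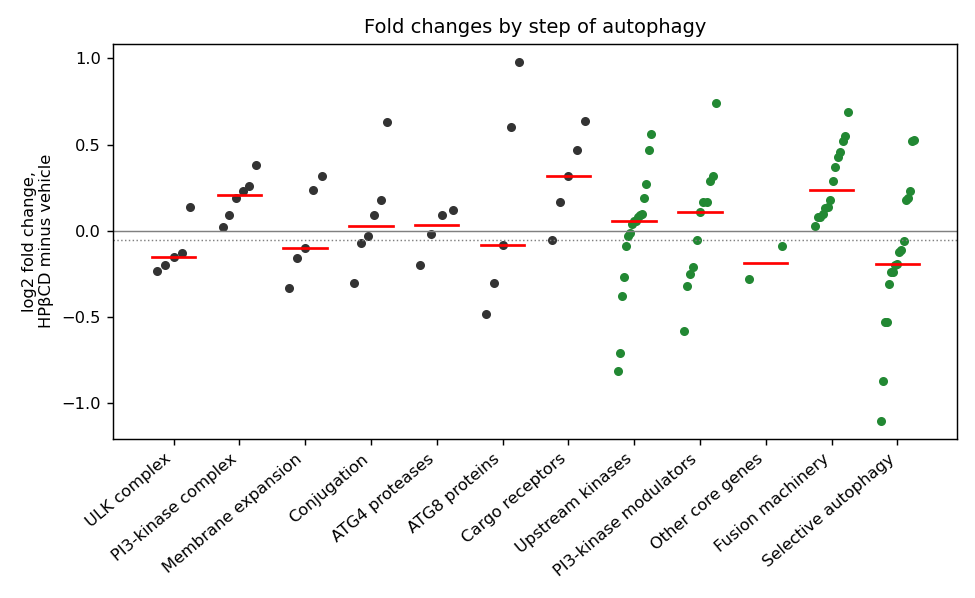
Log2 fold change (HPβCD minus vehicle, edgeR, all 8 animals) of every tested gene by step of autophagy, in black for the 36 listed genes and in green for the 61 other pathway genes. Red lines are list medians and the dotted line is the median of all tested genes, −0.05; the 14 fusion genes lie above 0 in this fit, with a median of 0.24, while *Snap29* and *Stx17* fall below 0 without vehicle animals 1 and 3, and *Vps41* and *Stx17* with library totals only.

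Levels differed widely between the genes. Per length, over all 8 animals, *Gabarap* had 334 CPM per kb, *Sqstm1* 74.6, *Gabarapl1* 41.3 and *Map1lc3b* 41.1, so that the 4 highest levels belonged to ATG8 proteins and p62. The order of the last pair differed between groups, with 42.5 and 32.7 CPM per kb in vehicle infarcts, where animal 3 raised the *Gabarapl1* mean, and 40.1 and 49.6 in HPβCD infarcts. The next were *Tax1bp1* at 30.2, *Atg5* at 25.1 and *Ulk2* at 24.1 CPM per kb, and *Atg4d* was the lowest at 0.736. These levels use the union of all annotated exons, which understates genes with long or rarely used exons.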

How the data were processed

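Infarcts of 8 mice (4 vehicle, 4 HPβCD) were profiled by RNA sequencing of polyadenylated RNA with a stranded kit. The authors deposited 1 table per animal of raw, unnormalized counts for each gene. Per the submitters' processing notes and the study's methods, reads were demultiplexed with bcl2fastq 2.19, trimmed with Trimmomatic 0.32, aligned to GRCm38 with STAR 2.5.2b and counted with htseq-count (HTSeq), and DESeq2 was used for testing. The strand option of the counting and the annotation release are not given in the sources used here, so reads of genes that overlap on opposite strands may not be separated. Such overlaps cover 43.9% of *Becn1*, 28.3% of *Gabarapl1*, 19.3% of *Atg4d*, 17.6% of *Uvrag* and 17.3% of *Sqstm1* exon bases.

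The 5 lines of reads without a gene, 26.6 to 36.6% of each table, were left out. Symbols and coordinates came from GENCODE and start sites and sequences from RefSeq. Counts were tested with edgeR 4.0.16 in R 4.3.3 (TMM, filterByExpr by group, robust quasi-likelihood F test, Benjamini-Hochberg over 14736 genes, threshold 0.05), and CPM use the TMM factors. Standard errors are the log2 fold change divided by the root of F. DESeq2 1.42.0, limma-voom with quality weights (limma 3.58.1), other scalings and filters, a replicate block, a neuron score covariate (the mean centred log2 CPM of the neuron markers) and fits without single animals or without vehicle animals 1 and 3 were alternatives. Ratios used log2 CPM with a prior count of 2 and an exact permutation test. In tests on simulated data the fits recovered the fold changes put in, edgeR missed the genes with the smaller of the changes simulated, and DESeq2 made more false calls than edgeR.

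All 36 genes are named. Values per animal are given for genes passing edgeR and, in each of 7 role groups, for the gene with the largest change and the one with the highest level per length, and always for *Gabarapl1*, *Map1lc3a*, *Map1lc3b* and *Sqstm1*. Of the other pathway genes, those passing edgeR and the 3 with the smallest p in each direction are named. Outside that rule, *Snap29*, *Stx17* and *Vps41* are named as fusion genes whose direction turned in some fits. *Atg9b* and *Ccpg1* are named as too low to test. The genes, lists and tests were chosen with earlier results of these data known, so no list was tested as a list. *Calcoco1* and *Gabarapl2* were added after their values were seen. Libraries are labelled as replicates and no 2 held equal counts, but no label names a batch or litter. Libraries held 16616909 to 32933164 counts. The lowest count of any of the 36 genes in a library was 68, for *Atg4d*, so counting error was larger for such genes than for the abundant ones. Sharing a replicate number did not pair the animals.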

Additional observations from a re-analysis of the deposited data

Results flagged for a closer look

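In 80 groups of 4 animals (36 genes and 4 ratios in each group), 5 had an animal further from the rest than Dixon's 95% limit, where chance gives about 4. On the log2 CPM scale, *Rb1cc1* was lowest in vehicle animal 1 at 6.73, against 6.84 to 6.85 in the other vehicle animals. *Wipi2* was highest in vehicle animal 3 at 6.64, against 5.89 to 5.99. *Atg4c* was lowest in vehicle animal 1 at 5.78, against 6.11 to 6.17. *Atg4b* was highest in HPβCD animal 2 at 6.00, against 5.65 to 5.71 in the other HPβCD animals. *Sqstm1* was lowest in HPβCD animal 4 at 7.98, against 8.23 to 8.27.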

How the results depend on the processing

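Of all tested genes, 173 were higher and 114 lower in edgeR. The counts were 1009 and 1890 with DESeq2, 1631 and 1601 with limma-voom, 7 and 4 with library totals only, 0 and 9 with the replicate number as a block, and 1 and 1 with the neuron score as a covariate. Without vehicle animals 1 and 3, 73 were higher and 129 lower. With single animals left out the counts were 0 to 307 higher and 0 to 348 lower: 208 and 348 without vehicle animal 2, 307 and 322 without vehicle animal 3, 274 and 79 without HPβCD animal 4, 1 and 3 without HPβCD animal 1, and 0 in both directions without vehicle animal 1 or 4 or HPβCD animal 2 or 3. Of the 36 genes, where edgeR passed 0, DESeq2 passed 4 as higher and limma-voom 9 as higher and 1 as lower. With single animals left out, 0 to 4 passed as higher: 4 without vehicle animal 3 (*Atg7*, *Gabarap*, *Sqstm1* and *Optn*) and 1 without HPβCD animal 4 (*Atg7*). Of the other pathway genes, 1 passed as higher and 0 as lower; the counts were 5 and 2 with DESeq2, 10 and 5 with limma-voom, and 0 higher with library totals only, without a filter, with the block and with the covariate. Without vehicle animals 1 and 3 there were 0 higher and 1 lower, and with single animals left out 0 to 4 higher (4 without vehicle animal 3) and 0 to 1 lower. The 4 genes separated upward (11.1%, against 8.77% of all genes) became 11 (30.6%, against 16.8%) without vehicle animals 1 and 3, where 2 vehicle animals separate more easily from 4 HPβCD animals. With single animals left out they were 4 to 9, with 9 (25.0%, against 12.5%) without vehicle animal 3 and 8 (22.2%, against 14.4%) without HPβCD animal 4. The 0 separated downward became 3 (8.33%, against 10.8% of all genes) with library totals only, 2 (5.56%, against 16.1%) without vehicle animals 1 and 3, and 0 to 3 with single animals left out, with 3 (8.33%, against 12.4%) without HPβCD animal 4. The causes were not tested.

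Directions turned for some genes, among them *Atg9a*, *Map1lc3a*, *Atg16l1* and *Gabarapl1*. With limma-voom the log2 fold changes were 0.05 for *Atg13*, 0.10 for *Atg101*, 0.07 for *Wipi2*, 0.18 for *Atg2b*, 0.08 for *Atg9a*, −0.02 for *Atg5*, 0.27 for *Atg4d*, 0.36 for *Map1lc3a* and 0.51 for *Gabarapl1*. Without vehicle animals 1 and 3 they were 0.05 for *Atg13*, 0.27 for *Atg101*, −0.03 for *Uvrag*, 0.09 for *Wipi2*, 0.16 for *Atg2b*, 0.13 for *Atg9a*, −0.08 for *Atg5*, 0.00048 for *Atg10*, 0.01 for *Atg16l1*, −0.11 for *Atg4a*, 0.37 for *Atg4d*, 0.53 for *Map1lc3a*, 0.74 for *Gabarapl1* and −0.08 for *Tax1bp1*. With the neuron score as a covariate they were 0.09 for *Atg13*, 0.35 for *Atg101*, −0.03 for *Uvrag*, 0.11 for *Wipi2*, 0.20 for *Atg2b*, 0.17 for *Atg9a*, −0.19 for *Atg5*, 0.05 for *Atg16l1*, −0.19 for *Atg4a*, 0.43 for *Atg4d*, 0.60 for *Map1lc3a*, 0.85 for *Gabarapl1* and −0.15 for *Tax1bp1*. *Uvrag* was −0.06 with library totals only, *Atg12* 0.002 and *Atg4c* 0.01 without a filter, and *Gabarapl1* 0.13 with the block. With single animals left out, ranges that crossed 0 were −0.20 to 0.01 for *Atg13*, −0.32 to 0.14 for *Atg101*, −0.03 to 0.10 for *Uvrag*, −0.0038 to 0.20 for *Ambra1*, −0.23 to 0.05 for *Wipi2*, −0.19 to 0.10 for *Atg2b*, −0.08 to 0.03 for *Atg12*, −0.09 to 0.04 for *Atg4c*, −0.36 to 0.16 for *Atg4d*, −0.56 to 0.34 for *Map1lc3a*, −0.28 to 0.49 for *Gabarapl1* and −0.10 to 0.0046 for *Nbr1*. Ratios ranged from −0.93 to −0.34 for *Map1lc3a* to *Map1lc3b*, −1.22 to −0.35 for *Gabarapl1* to *Gabarap* and −0.49 to −0.31 for *Ulk2* to *Ulk1*. Without vehicle animals 1 and 3 they were −0.13, −0.05 and −0.47.

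Library totals only moved the median of all genes from −0.05 to −0.13 and that of the 36 genes from 0.09 to 0.00. Deviations from the group means correlated at −0.26, 0.24, 0.33 and 0.10 between animals of the same number, so the numbers gave no pairing. The smallest p the exact permutation test of the ratios could give was 0.0286.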
